A study of Mus musculus with 8 samples.

Results

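RNA levels of 10 cytokine receptor chains other than the IL-2 receptor and the IL-1 receptor family were examined in mouse regulatory T (Treg) cells with and without the transcription factor Foxp1. The members were listed by name, and the rule itself uses no measured value, although earlier results of these data were known when the list was made: Il7r, Il4ra and Il21r, which pair with the common gamma chain; Il6ra, Il6st and Il27ra, which build the IL-6 and IL-27 receptors; Il10ra and Il10rb of the IL-10 receptor; and Ifngr1 and Ifngr2 of the interferon-γ receptor. They are 10 of the 27594 genes counted, and all 10 were among the 14540 genes tested. The 8 RNA sequencing libraries came from C57BL/6 mice aged 6 to 8 weeks, from spleen and peripheral lymph nodes, with 2 replicates in each of 4 groups. WT cells came from Foxp3-YFP-Cre mice, and Foxp1-deficient cells from Foxp1fl/fl Foxp3-YFP-Cre mice, in which both alleles of Foxp1 can be recombined by Cre. Every group therefore carried the Foxp3-YFP-Cre knock-in, which expresses Cre and the reporter YFP from the Foxp3 locus and so limits both to Foxp3-expressing cells. In each genotype, resting Treg (rTreg) cells were sorted as CD4+ YFP+ CD44low CD62Lhigh cells and activated Treg (aTreg) cells as CD4+ YFP+ CD44high CD62Llow cells. No source used here says whether a replicate was 1 mouse or a pool, so p-values measure only the spread between these samples, which may be partly technical.

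Cytokine receptors of the type I and type II families have no enzyme activity of their own. Ligand binding brings receptor chains together, the Janus kinases bound to their tails become active, and STAT transcription factors are phosphorylated and move to the nucleus. Which STATs are used depends on the chains: the IL-7 receptor works mainly through STAT5, the IL-4 receptor through STAT6, and gp130 receptors and the IL-10 and IL-21 receptors through STAT3. In Treg cells these inputs sit beside IL-2, and IL-10 and IL-27 signaling are known to support suppression in some settings, while IL-6 is known to disfavor Foxp3 induction in conventional CD4+ T cells.

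Counts on genes ranged from 6373170 to 15268623 per library, with a median of 12327710, and the 10 members took between 0.208% and 0.282% of a library. Levels are given as CPM, counts scaled to a common library total, after TMM scaling, a correction for library composition, and 3 counts, the lowest level read as signal, correspond to 0.196 to 0.471 CPM by library totals alone, without TMM. Such floors cover counting error only. Foxp1 itself was 353 and 384 (WT) against 342 and 338 CPM (Foxp1-deficient) in rTreg libraries, a difference that did not pass the test, and 234 and 230 against 126 and 102 CPM in aTreg cells, where it fell (log2 fold change -1.03, edgeR adjusted p = 0.00194). Counts over the whole gene do not separate recombined from full-length transcripts. Cd44, whose product was part of the sort, was 29.6 to 45.3 CPM in the 4 rTreg libraries and 174 to 214 CPM in the 4 aTreg libraries. Foxp3 lay between 429 and 646 CPM in all 8 libraries. In Foxp1-deficient rTreg cells Foxp3 (log2 fold change -0.32, edgeR adjusted p = 0.0496) and Cd44 (-0.43, edgeR adjusted p = 0.0339) were lower than in WT, calls that did not pass without the replicate block (0.324 and 0.173). Every replicate 1 library differed in sex from every replicate 2 library, as judged by Xist and Y-linked genes, and WT and Foxp1-deficient libraries of the same number had the same sex.

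Promoter sequences of 7 members (Il7r, Il4ra, Il21r, Il6ra, Il6st, Ifngr1 and Ifngr2) were matched by symbol in RefSeq (GRCm38.p6), and 4 are printed 5′ to 3′ on the gene's strand, from 250 bases before the transcription start to 50 after it. Il7r and Il21r are shown because they hold a match to a motif that was searched. Il4ra and Il6st are shown as members that differed between genotypes by at least 1.5-fold at an edgeR adjusted p under 0.05. Il6ra and Ifngr1, called between genotypes in aTreg cells at smaller folds, hold no match and are not printed. The motifs, searched on both strands, were the forkhead core TGTTTAC, a sequence bound by many forkhead proteins, and the STAT element TTCNNNGAA; matches are in capitals.
Il7r promoter, chr15:9529827-9530126, minus strand: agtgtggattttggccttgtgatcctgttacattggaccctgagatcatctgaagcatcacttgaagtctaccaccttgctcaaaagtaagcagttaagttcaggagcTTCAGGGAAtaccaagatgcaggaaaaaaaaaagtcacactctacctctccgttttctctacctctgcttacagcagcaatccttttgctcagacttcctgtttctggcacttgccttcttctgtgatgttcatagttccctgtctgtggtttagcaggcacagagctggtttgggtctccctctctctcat
Il21r promoter, chr7:125603179-125603478, plus strand: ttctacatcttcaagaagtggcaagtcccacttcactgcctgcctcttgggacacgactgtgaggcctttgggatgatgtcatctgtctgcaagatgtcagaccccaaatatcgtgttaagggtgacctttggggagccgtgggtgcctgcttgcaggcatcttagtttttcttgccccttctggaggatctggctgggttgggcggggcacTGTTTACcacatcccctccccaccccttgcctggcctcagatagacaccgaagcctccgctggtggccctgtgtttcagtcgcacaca
Il4ra promoter, chr7:125552021-125552320, plus strand: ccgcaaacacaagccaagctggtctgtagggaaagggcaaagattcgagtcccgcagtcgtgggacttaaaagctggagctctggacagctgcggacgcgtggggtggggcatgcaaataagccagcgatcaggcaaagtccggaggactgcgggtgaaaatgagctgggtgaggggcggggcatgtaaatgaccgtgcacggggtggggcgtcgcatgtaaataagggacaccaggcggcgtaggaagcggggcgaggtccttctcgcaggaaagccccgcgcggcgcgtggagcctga
Il6st promoter, chr13:112463820-112464119, plus strand: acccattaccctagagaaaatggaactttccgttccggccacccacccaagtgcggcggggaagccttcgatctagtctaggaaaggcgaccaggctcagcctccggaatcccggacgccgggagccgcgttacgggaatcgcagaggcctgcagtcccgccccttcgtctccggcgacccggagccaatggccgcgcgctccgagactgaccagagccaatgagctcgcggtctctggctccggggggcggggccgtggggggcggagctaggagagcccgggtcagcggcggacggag
The forkhead letters occurred in 1 of the 7 member promoters, that of Il21r, beginning 38 bases before the start, and in 3.65% of the 32851 promoters of the table. Only these exact letters were searched, so variants of the forkhead core were not counted in any promoter. The STAT letters occurred in 1 of the 7, that of Il7r, beginning 142 bases before the start, and in 8.3% of all promoters. For Il7r the RefSeq start lies 300 bases inside the gene from the GENCODE M21 start given below, and for Il4ra 151 bases, so the printed Il7r window, its match included, lies within the GENCODE gene, while for Il21r and Il6st both starts are the same. The Il6st promoter had the highest G and C content of the 4, 68.3% with 33 CpG dinucleotides, against 45.7% and 1 CpG for Il7r.

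Levels of different genes were compared only per length, as the FPKM values of the authors (reads scaled to the gene's length and the library's total). In WT rTreg cells Il27ra was the most abundant member (111 ± 0.197 FPKM, SD, n = 2, as for each level here). Il21r (79.5 ± 8.38), Il7r (72.9 ± 35.9), Ifngr1 (70.4 ± 21.2) and Il4ra (64.1 ± 2.02 FPKM) followed, and neighbors among these 4 did not differ beyond their spread. Below them came Il6ra (57.7 ± 3.16), Il6st (51.3 ± 3.03), Ifngr2 (26.7 ± 1.74), Il10ra (16.5 ± 2.38) and Il10rb (11.7 ± 0.775 FPKM).

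Other members led in the other groups. Il4ra (102 ± 0.971 FPKM) and Il21r (100.4 ± 2.24 FPKM), which did not differ beyond their spread, led in Foxp1-deficient rTreg cells, and Il10ra came last (9.39 ± 0.405 FPKM). In aTreg cells Il7r led in both genotypes, with 116 ± 51.2 FPKM in WT, within its spread of Il27ra (104 ± 1.69 FPKM), and 136 ± 20.4 FPKM in Foxp1-deficient cells. Ifngr2 came last in aTreg cells of both genotypes (11.3 ± 2.02 and 7.75 ± 1.24 FPKM), in WT within its spread of Il10rb (11.8 ± 1.21 FPKM). The place of Il7r rests on its length: the authors' values imply 3208 bases, whereas its merged exons in GENCODE M21 span 4663 bases. With the longer length Il7r would rank 7 rather than 3 in WT rTreg cells, 3 rather than 1 in WT aTreg cells, and 2 rather than 1 in Foxp1-deficient aTreg cells.

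**Figure D1:**
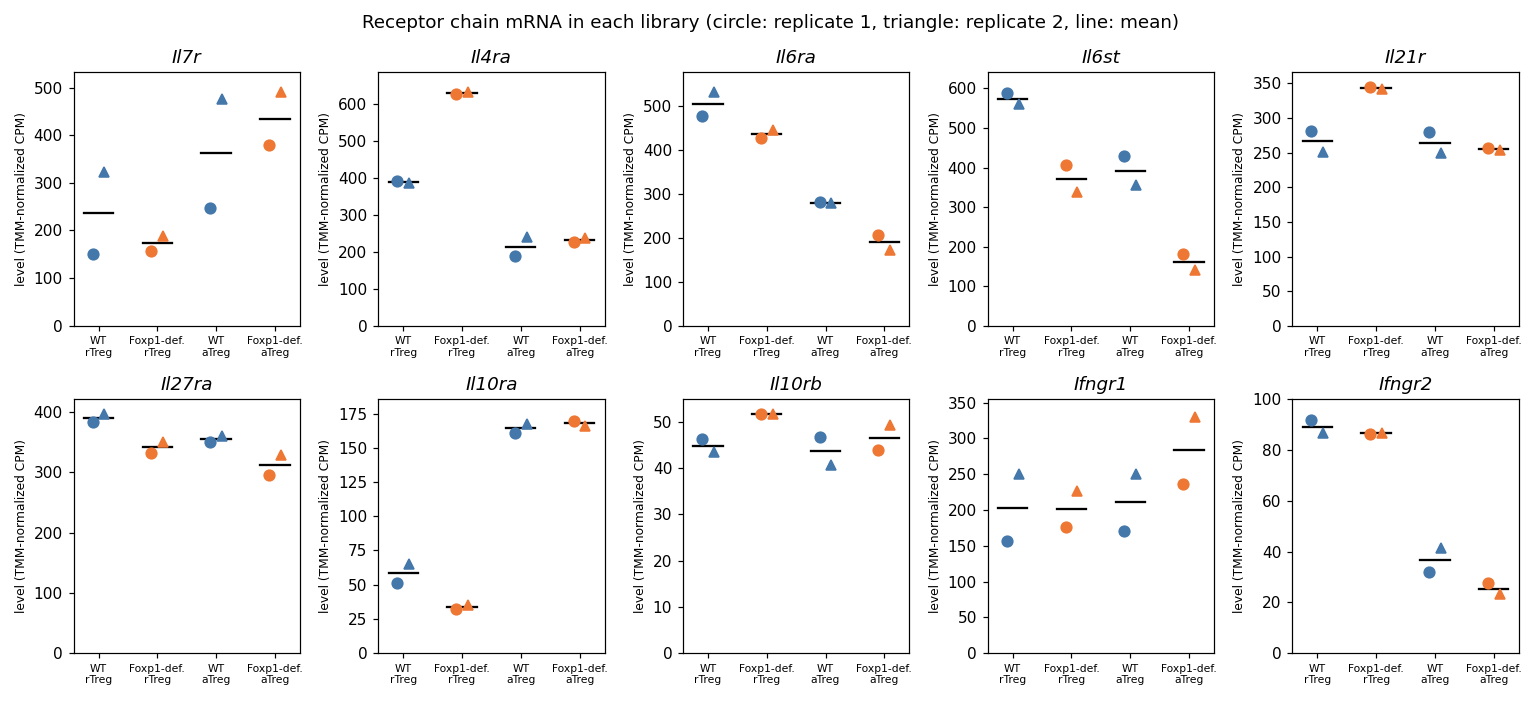
TMM-scaled CPM of the 10 receptor chains in each of the 8 libraries, with a panel per gene, the 4 groups on the x axis, 1 point per replicate and a bar at the group mean. Il10ra spans 4.97-fold between its lowest and highest group mean and Il10rb 1.18-fold, and the Il7r replicates lie far apart in WT cells of both subsets.

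The genotype comparison asked which receptor chains differed between Foxp1-deficient and WT cells of each Treg subset. Direct and secondary effects of the deletion were not separated. In Foxp1-deficient rTreg cells Il4ra rose 1.62-fold and Il21r 1.29-fold, while Il10ra fell 1.72-fold and Il6st, the shared signal chain gp130, fell 1.55-fold. Of the 10 members, 2 were called higher and 2 lower at an adjusted p under 0.05 by the quasi-likelihood test of edgeR (p-values adjusted by Benjamini-Hochberg), against 6.57% and 5.45% of all genes tested. A change of at least 1.5-fold was also met by 3 of them, against 5.6% of all genes. The median log2 fold change of the members was -0.12, and that of all genes 0.0029. In Foxp1-deficient aTreg cells Il6st fell 2.44-fold, Il6ra fell 1.48-fold and Ifngr1 rose 1.35-fold. Thus 1 member was called higher and 2 lower, against 4.11% and 2.77% of all genes, and 1 also met the fold of 1.5, against 4.03%. The median log2 fold change of the members was -0.0054, and that of all genes 0.0018. In these bulk samples a lower share of cells with a receptor and less RNA per cell cannot be told apart.

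**Figure D2:**
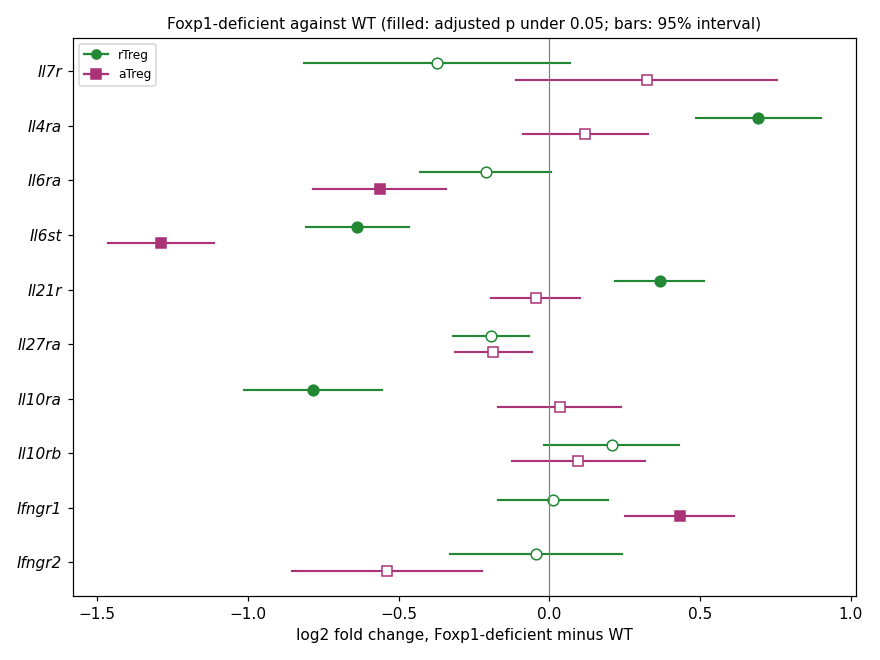
Log2 fold change of each receptor chain, Foxp1-deficient minus WT, in rTreg and in aTreg cells on the x axis, with unadjusted 95% intervals as bars and filled symbols for an adjusted p under 0.05. Il6st is the chain filled and left of 0 in both subsets, at -0.64 in rTreg and -1.29 in aTreg cells.

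The subset comparison asked how the chains differ between activated and resting Treg cells. In WT aTreg cells Il10ra rose 2.82-fold and Il7r 1.54-fold, while Ifngr2 fell 2.42-fold, Il4ra 1.82-fold, Il6ra 1.80-fold and Il6st 1.48-fold. These are 2 members higher and 4 lower, against 18.2% and 13.6% of all genes tested, and 2 of them also met a fold of 2, against 12.3%. In Foxp1-deficient cells 3 members were higher (Il10ra, Il7r, Ifngr1) and 5 lower (Ifngr2, Il4ra, Il6st, Il6ra, Il21r) in aTreg than in rTreg cells, against 21.9% and 18.2% of all genes, and 6 also met a fold of 2, against 15.7%. Median log2 fold changes of the members were -0.09 in WT and -0.29 in Foxp1-deficient cells, and those of all genes -0.0046 and -0.018.

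**Figure D3:**
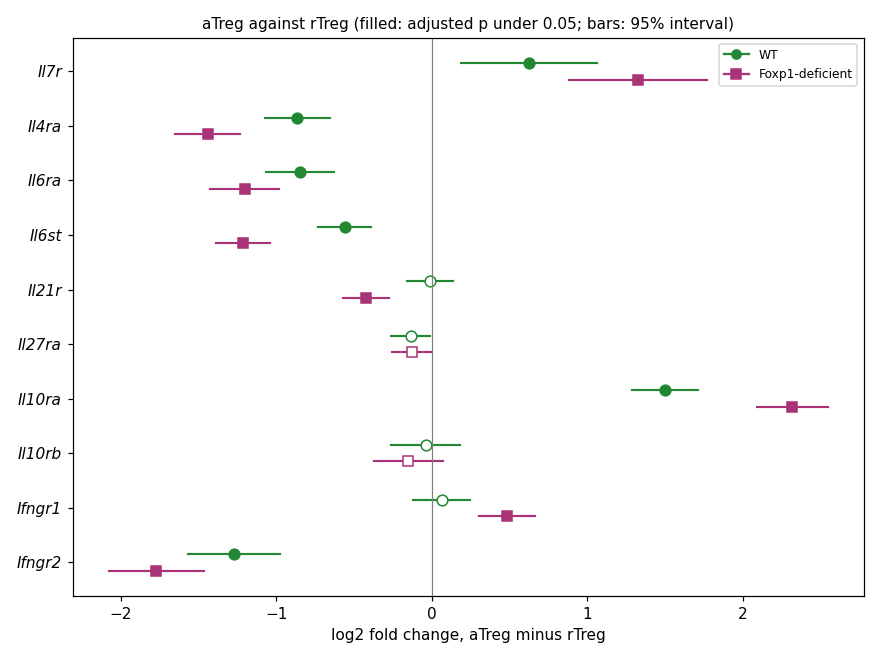
Log2 fold change of each receptor chain, aTreg minus rTreg, in WT and in Foxp1-deficient cells on the x axis, with unadjusted 95% intervals as bars and filled symbols for an adjusted p under 0.05. Il10ra lies farthest to the right (1.498 in WT, 2.32 in Foxp1-deficient cells) and Ifngr2 farthest to the left (-1.27 and -1.77).

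Whether the effect of genotype differed between aTreg and rTreg cells, the interaction, was tested in the same model. No member was called by edgeR, against 0.186% of all genes higher and 0.144% lower, while 8 of the 10 had an unadjusted p under 0.05, against 12.8% of all genes. DESeq2 with the same design called 4 members, Il10ra (adjusted p = 5.37e-04), Il6st (1.67e-04), Il4ra (0.00871) and Il21r (0.0230), and edgeR without its filter on low counts called 6. Among all genes with an adjusted p, DESeq2 called 2.64%, and edgeR without the filter 2.08%. By edgeR with the filter the nearest were Il10ra (log2 difference 0.82, adjusted p = 0.0531) and Il6st (log2 difference -0.65, adjusted p = 0.0531). Without WT aTreg replicate 1, Il4ra passed the edgeR test (adjusted p = 0.0126).

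Among the chains that pair with the common gamma chain, Il7r encodes the alpha chain of the IL-7 receptor, a survival receptor of naive and memory T cells (chr15:9505788-9530176, minus strand, GENCODE M21 on GRCm38, as for each member). Il7r was 151 and 324 CPM (WT) against 157 and 189 CPM (Foxp1-deficient) among rTreg libraries, and 248 and 477 CPM (WT) against 379 and 491 CPM (Foxp1-deficient) among aTreg libraries. Replicate 2 was higher than replicate 1 in every group, by more than a factor of 1.5 in WT cells, and the WT groups overlapped. The genotype effect on Il7r went opposite ways in the pairs of rTreg libraries (log2 fold changes 0.06 and -0.77) and did not pass the test in rTreg (-0.37, 95% interval -0.81 to 0.07) or in aTreg cells (0.32, -0.11 to 0.76). Of the 10 alternative settings 1 called it in rTreg cells, edgeR without the filter on low counts (adjusted p = 0.0171). The rise in aTreg over rTreg cells had a log2 fold change of 0.63 ± 0.19 (SE) in WT cells (edgeR adjusted p = 0.0377) and 1.32 ± 0.19 in Foxp1-deficient cells (edgeR adjusted p = 0.00116). It did not pass in either genotype when the replicate block was left out (edgeR adjusted p = 0.371 and 0.0555), and over all 10 alternative settings it passed in 5 in WT and 9 in Foxp1-deficient cells. In WT cells it also did not pass without WT rTreg replicate 1 (0.224) or WT aTreg replicate 2 (0.222), with the log2 fold change between 0.38 and 0.95 over all libraries left out in turn.

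Il4ra encodes the alpha chain shared by the IL-4 and IL-13 receptors (chr7:125552120-125579474, plus strand). Its levels were 390 and 386 CPM (WT) against 625 and 631 CPM (Foxp1-deficient) among rTreg libraries, and 188 and 239 CPM (WT) against 227 and 236 CPM (Foxp1-deficient) among aTreg libraries. Both Foxp1-deficient rTreg libraries lay above every other library, and the aTreg libraries of the genotypes overlapped. The increase in Foxp1-deficient rTreg cells was 0.69 ± 0.089 (log2, SE, edgeR adjusted p = 0.00395), and it missed the threshold without WT rTreg replicate 2 (edgeR adjusted p = 0.0520). In aTreg cells the log2 difference was 0.12, with a 95% interval of -0.09 to 0.33. The fall from rTreg to aTreg cells was -0.87 ± 0.090 in WT (edgeR adjusted p = 3.20e-04) and -1.44 ± 0.091 in Foxp1-deficient cells (edgeR adjusted p = 2.22e-05).

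Il21r, the IL-21 receptor gene, lies next to Il4ra on the same strand (chr7:125603429-125633570), with 23954 bases between them, and its promoter is the one with the forkhead letters above. Its levels were 282 and 251 CPM (WT) against 344 and 341 CPM (Foxp1-deficient) among rTreg libraries, and 279 and 249 CPM (WT) against 257 and 254 CPM (Foxp1-deficient) among aTreg libraries. As for Il4ra, both Foxp1-deficient rTreg libraries were the highest, and the other 6 libraries lay within 249 to 282 CPM. Il21r rose by 0.37 ± 0.064 (log2, SE) in Foxp1-deficient rTreg cells (edgeR adjusted p = 0.0123). This call did not pass without the replicate block (edgeR adjusted p = 0.108) or when any of the 4 rTreg libraries, WT replicate 1 or 2 or Foxp1-deficient replicate 1 or 2, was left out (0.0513 to 0.140). In Foxp1-deficient cells Il21r fell from rTreg to aTreg cells (-0.43 ± 0.064, edgeR adjusted p = 0.00140), and in WT cells the difference was -0.01, with a 95% interval of -0.16 to 0.14.

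Of the gp130 group, Il6st encodes gp130, the signal chain used by IL-6, IL-27, IL-11, LIF and related cytokines (chr13:112464070-112510086, plus strand). Its levels were 589 and 560 CPM (WT) against 405 and 338 CPM (Foxp1-deficient) among rTreg libraries, and 429 and 355 CPM (WT) against 181 and 140 CPM (Foxp1-deficient) among aTreg libraries. Foxp1-deficient libraries lay below WT libraries in each subset with no overlap. Il6st fell by 0.64 ± 0.074 (log2, SE) in Foxp1-deficient rTreg cells (edgeR adjusted p = 0.00283) and by 1.29 ± 0.075 in Foxp1-deficient aTreg cells (edgeR adjusted p = 3.23e-04). The aTreg call passed under all 10 alternative settings and with each of the 8 libraries left out. The rTreg call did not pass without the replicate block (edgeR adjusted p = 0.105) or without Foxp1-deficient rTreg replicate 2 (0.0526). From rTreg to aTreg cells Il6st fell by 0.56 ± 0.074 in WT (edgeR adjusted p = 0.00104, and 0.0551 without the replicate block) and by 1.21 ± 0.075 in Foxp1-deficient cells (edgeR adjusted p = 2.14e-05).

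Il6ra encodes the ligand-binding IL-6 receptor chain (chr3:89864059-89913196, minus strand). Its levels were 476 and 532 CPM (WT) against 426 and 444 CPM (Foxp1-deficient) among rTreg libraries, and 281 and 279 CPM (WT) against 207 and 172 CPM (Foxp1-deficient) among aTreg libraries. The 4 groups did not overlap and followed this order from high to low. The genotype difference did not pass in rTreg cells (-0.21, 95% interval -0.43 to 0.01), where 1 of the 10 alternative settings called it, edgeR without the filter on low counts (adjusted p = 0.0479). It passed in aTreg cells (-0.56 ± 0.095, edgeR adjusted p = 0.0159), but not without the replicate block (0.0915) or without WT aTreg replicate 1 (0.0502), WT aTreg replicate 2 (0.0816) or Foxp1-deficient aTreg replicate 2 (0.0981). From rTreg to aTreg cells Il6ra fell by 0.85 ± 0.094 in WT (edgeR adjusted p = 4.45e-04) and by 1.20 ± 0.095 in Foxp1-deficient cells (edgeR adjusted p = 6.22e-05). An antisense gene, Gm42809, overlaps 242 exonic bases of Il6ra and had 23 to 47 counts a library, and reads of both strands cannot be told apart where strand was not used in counting.

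Il27ra encodes the chain that joins gp130 in the IL-27 receptor (chr8:84030294-84042589, minus strand). Its levels were 384 and 396 CPM (WT) against 332 and 351 CPM (Foxp1-deficient) among rTreg libraries, and 350 and 360 CPM (WT) against 296 and 329 CPM (Foxp1-deficient) among aTreg libraries. The Foxp1-deficient libraries were below the WT libraries of the same subset, but neither difference passed (log2 -0.19 in each subset, edgeR adjusted p = 0.0597 in rTreg and 0.0893 in aTreg cells). That in rTreg cells was called in 2 of the 10 alternative settings, DESeq2 (adjusted p = 0.0280) and edgeR without the filter on low counts (0.0275). The group means of Il27ra spanned 1.25-fold, against 3.57-fold for its partner Il6st.

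For the IL-10 receptor, which restrains inflammation and acts on Treg cells themselves, Il10ra encodes the ligand-binding chain (chr9:45253837-45269149, minus strand). Il10ra was 51.3 and 65.1 CPM (WT) against 32.4 and 35.2 CPM (Foxp1-deficient) among rTreg libraries, and 161 and 167 CPM (WT) against 170 and 166 CPM (Foxp1-deficient) among aTreg libraries. The rTreg groups did not overlap, and the aTreg groups did. Il10ra fell by 0.78 ± 0.099 (log2, SE) in Foxp1-deficient rTreg cells (edgeR adjusted p = 0.00376), a call that missed the threshold without Foxp1-deficient rTreg replicate 2 (0.0647). The aTreg difference was 0.03, with a 95% interval of -0.17 to 0.24. Il10ra rose from rTreg to aTreg cells by 1.498 ± 0.092 in WT (edgeR adjusted p = 3.13e-05) and by 2.32 ± 0.098 in Foxp1-deficient cells (edgeR adjusted p = 4.44e-06), the largest changes among the members, and these passed under all 10 alternative settings and with each of the 8 libraries left out.

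Il10rb encodes the accessory chain that IL-10 shares with IL-22 and the type III interferons (chr16:91406164-91425834, plus strand). Its levels were 46.2 and 43.5 CPM (WT) against 51.6 and 51.8 CPM (Foxp1-deficient) among rTreg libraries, and 46.9 and 40.8 CPM (WT) against 43.8 and 49.3 CPM (Foxp1-deficient) among aTreg libraries. It was called in no comparison, with 95% intervals of -0.02 to 0.43 for the genotype effect in rTreg cells and -0.12 to 0.32 in aTreg cells. Its group means spanned 1.18-fold, against 4.97-fold for Il10ra. A same-strand gene, Gm21970, overlaps 569 exonic bases of Il10rb, so its counts are uncertain to that extent.

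The interferon-γ receptor pairs Ifngr1, the ligand-binding chain (chr10:19591949-19610229, plus strand), with Ifngr2, the chain that binds JAK2 (chr16:91547072-91565623, plus strand). Ifngr1 was 157 and 250 CPM (WT) against 177 and 226 CPM (Foxp1-deficient) among rTreg libraries, and 171 and 250 CPM (WT) against 237 and 329 CPM (Foxp1-deficient) among aTreg libraries. Replicate 2 was the higher in every group. The genotypes overlapped in each subset, and so did the WT subsets. In Foxp1-deficient cells the aTreg libraries lay above the rTreg libraries. In rTreg cells the genotype difference was 0.01 (95% interval -0.17 to 0.20), and in aTreg cells Ifngr1 rose by 0.43 ± 0.078 (log2, SE, edgeR adjusted p = 0.0203). That call did not pass without the replicate block (edgeR adjusted p = 0.636) or without any of the 4 aTreg libraries, WT replicate 1 or 2 or Foxp1-deficient replicate 1 or 2 (0.0728 to 0.131). From rTreg to aTreg cells Ifngr1 rose by 0.48 ± 0.079 in Foxp1-deficient cells (edgeR adjusted p = 0.00211, and 0.269 without the replicate block), and in WT cells the difference was 0.06 (-0.12 to 0.25).

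Ifngr2 was 91.9 and 86.7 CPM (WT) against 86.4 and 86.8 CPM (Foxp1-deficient) among rTreg libraries, and 31.8 and 41.3 CPM (WT) against 27.7 and 23.1 CPM (Foxp1-deficient) among aTreg libraries. All 4 rTreg libraries lay above all 4 aTreg libraries. It fell from rTreg to aTreg cells by 1.27 ± 0.13 in WT (edgeR adjusted p = 2.77e-04) and by 1.77 ± 0.13 in Foxp1-deficient cells (edgeR adjusted p = 4.78e-05). The genotype difference in aTreg cells, -0.54 ± 0.14, did not pass (edgeR adjusted p = 0.0575), but passed without WT aTreg replicate 1 (-0.75, adjusted p = 0.0125), by DESeq2 (0.0372) and by edgeR without the filter on low counts (0.00170). The other 8 alternative settings did not call it, and it was -0.28 without WT aTreg replicate 2 (adjusted p = 0.339) and -0.36 without Foxp1-deficient aTreg replicate 2 (adjusted p = 0.394). In rTreg cells it was -0.04, with a 95% interval of -0.33 to 0.24.

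Since each receptor needs both of its chains, their balance was described as a ratio of FPKM values, with no test. Il10ra to Il10rb was 1.21 and 1.63 in WT rTreg libraries and 0.682 and 0.739 in Foxp1-deficient rTreg libraries. By these FPKM values, RNA of the ligand-binding chain was above that of the accessory chain in WT and below it in Foxp1-deficient rTreg cells. Gm21970 overlaps 569 exonic bases of Il10rb, so the Il10rb values, and with them the level of this ratio against 1, are uncertain. In aTreg cells this ratio was 3.74 and 4.47 in WT and 4.22 and 3.66 in Foxp1-deficient cells. Il27ra to Il6st was 2.07 and 2.25 (WT) against 2.60 and 3.30 (Foxp1-deficient) among rTreg libraries, and 2.59 and 3.23 (WT) against 5.19 and 7.45 (Foxp1-deficient) among aTreg libraries, with the highest ratios in the Foxp1-deficient aTreg libraries. Il6ra to Il6st was close to 1 in WT and higher in Foxp1-deficient libraries of each subset, with 1.04 and 1.22, 1.35 and 1.69, 0.842 and 1.01, and 1.46 and 1.58 in the same order of groups. Ifngr1 to Ifngr2 was 1.98 and 3.35 (WT) against 2.38 and 3.03 (Foxp1-deficient) among rTreg libraries, and 6.26 and 7.06 (WT) against 9.94 and 16.6 (Foxp1-deficient) among aTreg libraries. The authors' gene length for Ifngr2 (3313 bases) is shorter than its merged exons in GENCODE M21 (3767 bases), which scales this ratio in every library alike.

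**Figure D4:**
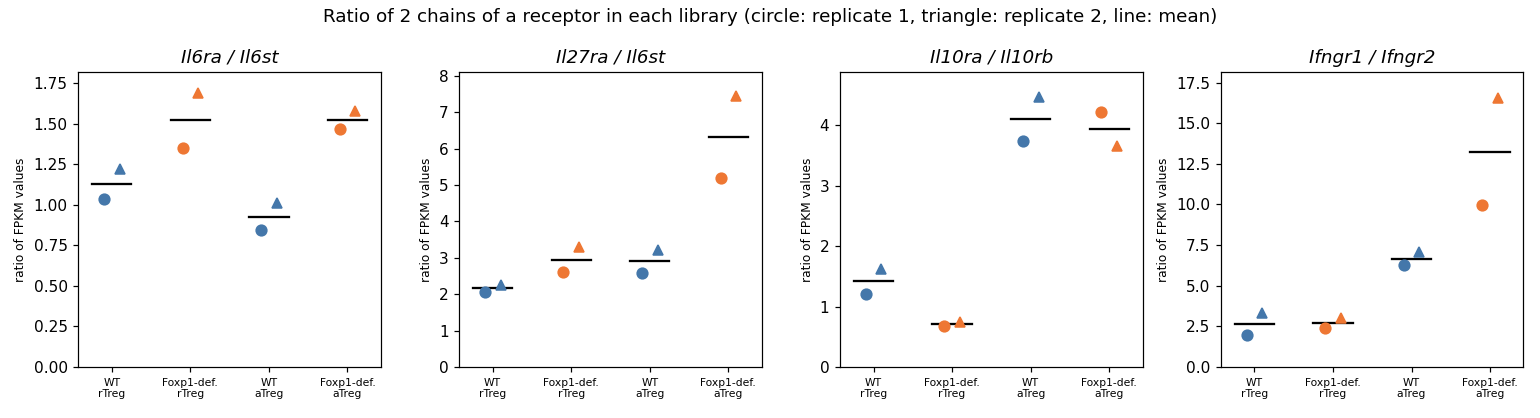
Ratio of FPKM values of the chains of a receptor, with a panel per receptor, the 4 groups on the x axis, 1 point per library and a bar at the group mean. Il10ra to Il10rb lies under 1 in both Foxp1-deficient rTreg libraries and above 1 in the other 6, and Ifngr1 to Ifngr2 reaches 16.6 in a Foxp1-deficient aTreg library.

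The kinases, STATs and inhibitors downstream of these receptors were followed with lists written by hand, as were other receptor chains and ligands. Of the 51 list genes tested, 7 were called between genotypes in rTreg and 4 in aTreg cells, against 12% and 6.88% of all genes. Of these, 1 (Clcf1) and 1 (Il13ra1) remained called without the replicate block, against 2.06% and 0.557% of all genes. Between subsets 28 were called in WT and 32 in Foxp1-deficient cells, against 31.9% and 40.1%. Without the block 17 and 23 remained, against 16.3% and 23.9%. By direction, the shares of all genes given above for each comparison stand beside the counts of every list below. None of the 4 Janus kinase genes was called between genotypes. From rTreg to aTreg cells 2 rose and 1 fell in each genotype: Jak2 by 0.45 in WT and 0.61 in Foxp1-deficient cells and Tyk2 by 0.39 and 0.60 on the log2 scale, while Jak1, which binds gp130 and the IL-10 and interferon chains, had log2 fold changes of -0.38 and -0.28 (edgeR adjusted p = 0.0868 and 0.159 without the replicate block). Of the 7 STAT genes, Stat5b, used by the IL-7 and IL-2 receptors, rose in Foxp1-deficient cells of both subsets (0.37, edgeR adjusted p = 0.00492 in rTreg, and 0.22, edgeR adjusted p = 0.0466 in aTreg cells), and no other STAT gene was called between genotypes. Neither Stat5b call passed without the replicate block (edgeR adjusted p = 0.0544 and 0.279). In aTreg against rTreg cells 1 STAT gene fell in WT (Stat5a, -0.34), and in Foxp1-deficient cells Stat4 rose (0.70) and Stat5a (-0.51), Stat5b (-0.23) and Stat6 (-0.22) fell. Without the replicate block the calls of Stat5a in WT (edgeR adjusted p = 0.0590), Stat5b (0.0618) and Stat6 (0.230) did not pass. Of the 17 inhibitors, Socs3, an inhibitor that binds gp130, was the 1 called between genotypes in rTreg cells (0.37, edgeR adjusted p = 0.0155, and 0.259 without the replicate block), and none was called in aTreg cells. Between subsets 4 inhibitors rose and 4 fell in WT, against 18.2% and 13.6% of all genes. In Foxp1-deficient cells 4 rose and 3 fell, against 21.9% and 18.2%. Among them were Pias3 (1.10 in WT and 1.38 in Foxp1-deficient cells) and Socs3 (-0.50 and -0.73, the former with an edgeR adjusted p of 0.0556 without the block).

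Of 24 other receptor chains, 15 passed the filter on low counts. In Foxp1-deficient rTreg cells Il2rg, the common gamma chain, rose (0.27, edgeR adjusted p = 0.0263), and Il2rb (-0.49, edgeR adjusted p = 0.0334) and Il11ra1, another partner of gp130 (-0.76, edgeR adjusted p = 0.0207), fell, and none of these calls passed without the replicate block (0.127, 0.181 and 0.0764). In Foxp1-deficient aTreg cells Il13ra1, the partner of Il4ra in the type II IL-4 receptor, rose from 13 and 30 counts to 96 and 155 counts. Scaled for library size these were 1.43 and 1.92 against 8.05 and 11.1 CPM (log2 fold change 2.49, edgeR adjusted p = 0.00372). Il2ra fell in Foxp1-deficient aTreg cells (-0.27, edgeR adjusted p = 0.0429, and 0.526 without the block). From rTreg to aTreg cells 7 of these chains rose and 2 fell in WT, against 18.2% and 13.6% of all genes. In Foxp1-deficient cells 8 rose and 2 fell, against 21.9% and 18.2%. Il9r (6.25 in WT and 6.17 in Foxp1-deficient cells) and Il12rb1 (1.88 and 1.86) were among the risers. Lifr, whose product pairs with gp130 for LIF, had 8 counts in all over the 8 libraries.

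Of 13 ligand genes, 8 passed the filter. Lif, a gp130 cytokine, had 164 and 52 counts (WT) against 300 and 359 (Foxp1-deficient) in rTreg libraries. Scaled for library size these were 15.1 and 4.09 against 47.8 and 25.9 CPM. Lif rose with Foxp1 deficiency (2.10, edgeR adjusted p = 0.00145, and 0.259 without the replicate block). Clcf1, another gp130 cytokine, had 1819 and 2146 counts (WT) against 732 and 1512 (Foxp1-deficient) in rTreg libraries. Scaled for library size these were 168 and 169 against 117 and 109 CPM. Clcf1 fell in both subsets (-0.58, edgeR adjusted p = 0.00950 in rTreg, and -0.67, edgeR adjusted p = 0.00992 in aTreg cells, the latter 0.0534 without the block). No other ligand was called between genotypes. In aTreg against rTreg cells 6 ligands rose and 1 fell in WT, against 18.2% and 13.6% of all genes. In Foxp1-deficient cells 6 rose and 2 fell, against 21.9% and 18.2%. Il10 had at most 2 counts in any rTreg library and 100 to 352 in aTreg libraries, and Ifng had at most 5 and 101 to 202. Il6 had 12 counts in all 8 libraries together.

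The genes most like a member across the 8 libraries were taken by Pearson correlation of log2 CPM among 8968 genes of sufficient level, for the 4 members with the widest range. They are given as a description, since the 8 points share their groups. For Il10ra they were Bicd1 (r = 0.998), Thap3 (0.995) and Cst7 (0.995), and for Il6st Clcn2 (0.990), Atp6v0a1 (0.988) and Cnksr3 (0.986). For Ifngr2 they were Adcy6 (0.997), Tle1 (0.995) and Pik3cd (0.993), and for Il4ra Mknk1 (0.996), Vav1 (0.993) and Dgkd (0.990).

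Markers of other cells were measured beside these results, as CPM by library totals without TMM. The 6 Treg markers summed to 2684 to 2890 CPM in rTreg libraries and 3599 to 4439 CPM in aTreg libraries, but they did not move alike. Ikzf2 was 324 to 470 CPM in rTreg and 1032 to 1292 CPM in aTreg libraries. Il2ra was 512 to 627 against 345 to 533 CPM, and Foxp3 423 to 629 against 512 to 577 CPM. The 4 granulocyte markers moved with genotype in rTreg cells, from 0 to 0.371 CPM in WT, where Elane and Mpo were at 0 counts, to 4.94 to 11.5 CPM in Foxp1-deficient libraries, and reached 25.5 CPM in 1 Foxp1-deficient aTreg library. The 4 B cell markers moved with subset, with 7.89 to 9.41 CPM in rTreg and 18.1 to 19.8 CPM in aTreg libraries, though Ms4a1, which encodes CD20, had at most 4 counts in any library. The 3 NK cell markers lay at 0 to 0.626 CPM in rTreg and 2.12 to 4.32 CPM in aTreg libraries, the 2 CD8 markers at 12.2 to 16.8 and 6.01 to 10.3 CPM, and the 6 myeloid markers at 8.07 to 10.04 and 5.87 to 10.7 CPM. The NK sums in aTreg libraries came mainly from Klrb1c (25 to 41 counts), while Ncr1 and Klra8 had at most 15 and 10 counts in any library. The CD8 sums came mainly from Cd8b1 (83 to 173 counts), while Cd8a had at most 10 counts in any library. The part of these cells in the receptor results was not tested.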

How the data were processed

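RNA of sorted cells was extracted with Trizol and made into libraries with the NEBNext Ultra kit, and paired reads were sequenced on a HiSeq X. According to the methods and the submitters' processing notes, the authors used FastQC, trim_galore, HISAT2 2.0.5 (mm10), Picard for duplicate removal and htseq-count; strand setting and annotation release are not given in the sources used here. The authors deposited whole-number counts per gene and FPKM values, and each FPKM value equals the count over the library total and 1 length per gene. Gene symbols were taken from the deposited table, and coordinates and exon overlaps are from GENCODE M21.

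All 8 libraries entered 1 model in edgeR 4.0.16 (R 4.3.3), with 1 coefficient per group, replicate number as block, TMM scaling, filterByExpr with a minimum count of 10 (13054 genes left out), glmQLFit and glmQLFTest, and Benjamini-Hochberg adjustment over the 14540 genes. Calls were made at an adjusted p under 0.05, and a stricter rule added the study's folds of 1.5 between genotypes and 2 between subsets. Standard errors are the fold change over the square root of F, and the fold changes of single pairs come from log CPM with a prior count of 2. The block follows the paired analysis in the methods. Deviations of same-numbered libraries from their group means correlated at 0.355 to 0.597 over the 6 pairs of groups. The alternatives were no replicate block, DESeq2 1.42.0, limma-voom (limma 3.58.1), median-of-ratios size factors, no filter, a filter at 1 CPM in 2 libraries, the libraries of a comparison alone, limma on log2 FPKM plus 1 or plus 0.1 (mean at least 1) or plus 1 with no filter, and leaving out each library, where the lone sample of a group is assumed to vary like the others. All 10 members are named, and of each list the called genes with the lowest adjusted p, at most 4 a comparison; the most similar genes had at least 10 CPM on average. Genes given as counts or as examples of low level were picked after their values were seen. The fit without the block for genes other than the members was added after seeing the data. The members and lists were chosen with earlier results of these data known. Some results for further genes are not reported here.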

Additional observations from a re-analysis of the deposited data

How the results depend on the processing

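With 2 replicates a group, fits that leave out 1 library rest on 7 libraries and a pooled spread, and adjusted p-values near the threshold moved across it. Without the replicate block the members called numbered 2 in place of 4 for the genotype effect in rTreg cells, against 2.06% in place of 12% of all genes. In aTreg cells they numbered 1 in place of 3, against 0.557% in place of 6.88%. Apart from the calls named in the report, leaving out the block changed no call of a member. In rTreg cells 7 members were called with no filter on low counts, against 8.65% of the genes tested in that setting. There 0 were called with limma on log2 FPKM plus 1 without a filter, against 0.663%. In aTreg cells 1 was called with each of the 3 FPKM settings. The shares of all genes there were 1.34% (plus 1) and 1% (plus 0.1) with the filter on the mean, and 0.0761% (plus 1) without it. For the interaction DESeq2 called 4 and edgeR without a filter 6, against 2.64% and 2.08% of the genes with an adjusted p. Leaving out 1 library at a time gave 1 to 4 called members in rTreg, 1 to 3 in aTreg and 0 to 1 in the interaction, with 5 to 6 for the subset effect in WT and 8 in Foxp1-deficient cells. The causes were not tested.

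The values that changed sign were small and not called. The log2 genotype effect on Ifngr1 in rTreg cells was -0.010 without the replicate block, -0.0049 by DESeq2, -0.0046 by limma-voom, -0.0016 with median-of-ratios size factors, -0.010 with no filter on low counts, -0.0086 on log2 FPKM plus 1 with or without a filter and -0.0084 on log2 FPKM plus 0.1, and -0.10 to 0.12 with 1 library left out. With 1 library left out the other ranges were -0.12 to 0.010 for Ifngr2 in rTreg cells and, in aTreg cells, -0.035 to 0.29 for Il4ra, -0.096 to 0.0082 for Il21r, -0.067 to 0.14 for Il10ra and -0.041 to 0.23 for Il10rb. For the subset effect in WT, the log2 FPKM fits gave 0.036 (plus 1, with or without a filter) and 0.037 (plus 0.1) for Il21r and 0.011 and 0.012 for Il10rb, and leaving out 1 library gave -0.064 to 0.047 for Il21r, -0.15 to 0.080 for Il10rb and -0.029 to 0.18 for Ifngr1. For the interaction these ranges were -0.041 to 0.058 for Il27ra and -0.25 to 0.016 for Il10rb.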

Other observations

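Pairs of members were also compared over the 8 libraries by Pearson correlation of log2 CPM, as a description, since the points share 4 groups and 2 replicate numbers. Il6ra followed Ifngr2 (r = 0.971) more closely than its own partner Il6st (r = 0.881). Il10ra ran against Il4ra (r = -0.974) and Ifngr2 (r = -0.918). The neighboring genes Il4ra and Il21r had r = 0.792, whereas Il10rb and Ifngr2, 121237 bases apart on chromosome 16, had r = 0.248.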
